A study of Mus musculus with 18 samples.

Results

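The 46 interferon-stimulated genes described here are genes whose transcription is known to follow the interferons and were given as a list of names, which was drawn up with earlier results of these data known. They comprise 29 antiviral effectors and regulators, 4 transcription factors of interferon signalling (Irf1, Irf7, Irf9 and Stat2) and 13 GTPase genes of the guanylate-binding protein (Gbp) and immunity-related GTPase (IRG) families. All 46 have a row in the RNA-seq table of 23420 genes, and 43 had a mean normalized count of at least 10 over the libraries and were tested. RNA-seq was made from hindlimb muscle of female C57BL/6J mice of 2, 20 and 28 months, with 3 mice and 3 libraries per age and no treatment or transgene named for any group. Muscles of these ages are called 2-m, 20-m and 28-m muscles. Methylated DNA of muscle and of spleen T cells, captured with a methyl-CpG-binding domain (MBD-seq), was sequenced from pools of the 3 mice of each age.

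Type I interferons bind the receptor made of Ifnar1 and Ifnar2, and interferon gamma binds the receptor made of Ifngr1 and Ifngr2. Janus kinases on these receptors then phosphorylate STAT proteins. A complex that holds STAT2 and IRF9 binds the interferon-stimulated response element (ISRE), whereas STAT pairs bind the gamma-activated site (GAS). The effectors degrade viral RNA, block translation or viral entry, or tag proteins with ISG15. The GBP and IRG GTPases coat the vacuoles of intracellular pathogens and are known for their strong induction by interferon gamma, although type I interferons induce many of them as well.

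Sequence upstream of the start was found for 34 of the 46 members in the RefSeq table of promoters (GRCm38.p6), which holds 250 bases before and 50 after each start. The ISRE was searched as TTTCNNTTTC or GAAANNGAAA, which are the same letters on the 2 strands, and the GAS as TTCNNNGAA, which reads the same on both. ISRE letters were in the promoters of 19 of 34 members (55.9%), against 3.99% of 27025 genes, and GAS letters in 12 of 34 (35.3%), against 9.55%. All 9 GTPase genes with a promoter in the table held the ISRE letters and 6 of them the GAS letters. The ISRE letters were in 9 of 21 effector promoters and in 1 of 4 transcription factor promoters. In 24 of all 32851 promoters in the table an ISRE and a GAS match overlapped. A match is a description of the letters and not a bound site.

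All ISRE letters within windows of 30 bases are shown in capitals for 4 Gbp genes of chromosome 3 and for 4 other members, each 5′ to 3′ on the strand of its gene, because all of them but Gbp2 carry differences between ages described afterwards. Matches that overlap run together, with 2 in Gbp3, Bst2 and Irgm1 and 3 in Isg15.
Gbp7 (chr3:142530273-142530302, plus strand): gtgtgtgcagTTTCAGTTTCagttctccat
Gbp3 (chr3:142559989-142560018, plus strand): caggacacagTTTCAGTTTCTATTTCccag
Gbp5 (chr3:142496759-142496788, plus strand): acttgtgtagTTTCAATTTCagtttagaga
Gbp2 (chr3:142620594-142620623, plus strand): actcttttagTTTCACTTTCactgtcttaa
Isg15 (chr4:156200871-156200900, minus strand): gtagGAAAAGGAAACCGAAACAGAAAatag
Bst2 (chr8:71537577-71537606, minus strand): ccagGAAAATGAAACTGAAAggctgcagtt
Stat2 (chr10:128270266-128270295, plus strand): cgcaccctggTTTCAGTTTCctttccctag
Irgm1 (chr11:48871425-48871454, minus strand): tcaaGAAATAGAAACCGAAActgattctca

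In 4 IRG-family genes on chromosome 11, the GAS letters were followed after 2 bases by the ISRE letters, and the 10 bases before them were the same in all 4. The 41-base windows are shown with both motifs in capitals, since Gm12185 and Igtp were among the members that changed and the windows are near copies of each other.
Gm12185 (chr11:48927238-48927278, minus strand): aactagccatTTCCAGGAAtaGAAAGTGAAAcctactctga
Tgtp1 (chr11:48992304-48992344, minus strand): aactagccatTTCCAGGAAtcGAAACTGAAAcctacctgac
Igtp (chr11:58199501-58199541, plus strand): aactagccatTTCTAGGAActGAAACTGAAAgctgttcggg
Irgm2 (chr11:58214892-58214932, plus strand): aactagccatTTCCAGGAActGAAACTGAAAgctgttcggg

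The arrangement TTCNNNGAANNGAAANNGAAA, which was chosen after these promoters had been read, occurred on either strand in 5 of 27025 genes (0.0185%), namely these 4 and Tgtp2, a near copy of Tgtp1. Gbp7, the GTPase with the clearest fall at 20 months, held 2 GAS matches and 1 ISRE match in the 250 bases before its start (chr3:142530086-142530335, plus strand), shown in capitals in that order.
Gbp7: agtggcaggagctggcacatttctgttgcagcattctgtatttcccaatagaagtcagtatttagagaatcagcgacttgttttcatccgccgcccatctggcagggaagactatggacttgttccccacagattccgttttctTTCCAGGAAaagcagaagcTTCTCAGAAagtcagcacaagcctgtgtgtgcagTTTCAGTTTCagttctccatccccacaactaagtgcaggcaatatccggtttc

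The 9 libraries held 20203833 to 71115244 reads on genes. The 3 libraries numbered 3 stood apart, with 8.81 to 10.4% of gene reads on the ribosomal RNA gene Rn45s against 24.0 to 30.4% in the other 6, so results are also given without them. Summed normalized counts of 10 muscle fibre genes were 6252940 to 8098240 in every library, which checks the labelled tissue. Marrow granulocyte genes summed to 5236 in 2-m library 1 and to 16.8 to 74.2 in the other 8. In whole muscle, fewer cells of a type and less RNA per cell cannot be told apart.

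Of 43 tested interferon-stimulated genes, 22 passed the test in at least 1 contrast between ages, against 2755 of all 13178 genes (20.9%). At 20 against 2 months, 17 of 43 tested members were lower and 1, Gbp6, was higher (adjusted p under 0.05 in limma, all 13178 genes). Over all genes, 7.13% were lower and 9.42% higher in this contrast. At an unadjusted p under 0.05, 25 members were lower and 2 higher (14.8 and 16.8% of all genes). At 28 against 20 months, 8 members were higher (Ifitm3, Irf7, Gbp3, Gbp4, Gbp5, Gbp7, Iigp1 and Gm12185), and over all genes 28 (0.212%) were higher and 22 (0.167%) lower. At an unadjusted p under 0.05, 34 members were higher there (5.15% of all genes) and 0 lower (5.44%), and neither edgeR nor DESeq2 on the recovered reads called a member lower. At 28 against 2 months, 4 members were higher (Ifit2, Gbp6, Irgm1 and Igtp) and none lower, against 7.53 and 6.24% of all genes. At an unadjusted p under 0.05, 12 members were higher and 1 lower in that contrast (14.6 and 13.5% of all genes), and of members with an adjusted p under 0.05, edgeR had 0 lower and DESeq2 had 1 lower.

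**Figure D1:**
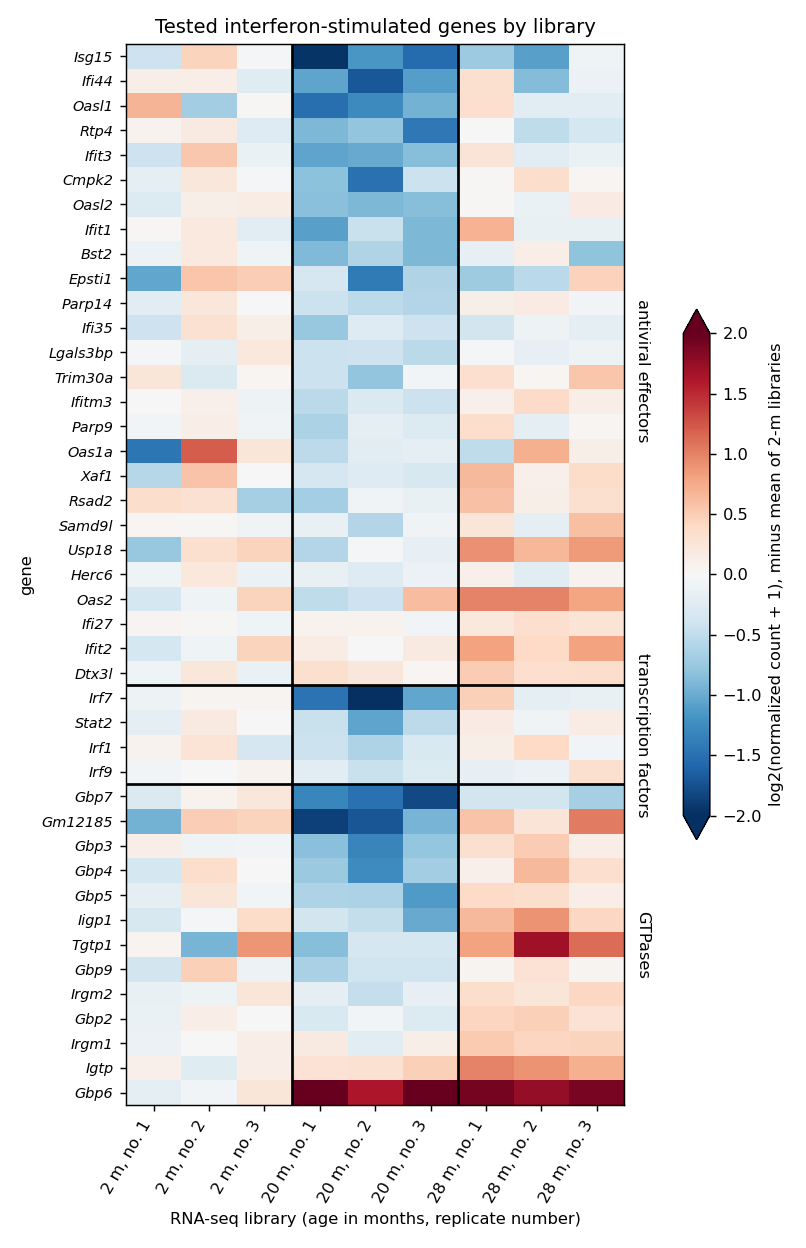
Heat map of the 43 tested interferon-stimulated genes (rows, by role and sorted by the 20-m mean) in the 9 RNA-seq libraries (columns), coloured by log2 of the normalized count plus 1 minus the mean of the 2-m libraries. The 20-m columns are blue for most genes, with a median over members of -0.54, -0.47 and -0.42 in the 3 libraries, and Gbp6 in the last row is the 1 gene called higher at 20 months, among 6 with a mean above that of the 2-m libraries.

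The values of all tested members, called or not, were also counted by direction. Of the 43 members, 37 had a log2 fold change below 0 at 20 against 2 months (median -0.48), 32 had one above 0 at 28 against 2 months (median 0.16) and 42 had one above 0 at 28 against 20 months (median 0.64). The medians over all tested genes were -0.017, -0.011 and -0.003. The first and last contrasts share the 20-m libraries, so low values there enter both, and the first 2 contrasts share the 2-m libraries. The 20-m libraries held the lowest of the 9 values for 34 members, against 27.5% of all genes, and 37 members had their lowest group mean at 20 months, against 32.7%. In 24 members every 20-m library was below every 2-m library and in 2 every one was above, against 17.6 and 18.4% of all genes. At 28 against 20 months the groups did not overlap for 36 members, all higher at 28 months, against 8.63% of all genes higher and 8.84% lower. At 28 against 2 months they did not overlap for 10 members that were higher and 1 that was lower, against 15.3 and 15.0% of all genes.

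The thresholds of the study, more than 2-fold with an unadjusted p under 0.05, were applied here to the limma values, whereas the study applied them to DESeq2 values. They gave 7 lower and 1 higher at 20 against 2 months (2.90 and 2.27% of all genes), and 2 higher and 0 lower at 28 against 2 months (2.66 and 2.48%). At 28 against 20 months they gave 12 higher and 0 lower (0.926 and 0.379%).

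The number of calls depended on single libraries. The 17 members lower at 20 months became 6 without 2-m library 2, and 9, 10 and 11 without 20-m libraries 1, 2 and 3. Over all genes, the 939 that were lower became 815 without 2-m library 2, and 468, 544 and 688 without 20-m libraries 1, 2 and 3. The 8 members higher at 28 than at 20 months became 2, 4 and 2 without 20-m libraries 1, 2 and 3, and 1, 0 and 3 without 28-m libraries 1, 2 and 3. The 28 higher genes among all genes became 8, 22 and 9, and 10, 9 and 12, in the same order. The 4 members higher at 28 than at 2 months became 2 and 7 without 2-m libraries 1 and 3, and 2 without 28-m library 1 or 3, whereas the 992 among all genes became 612, 793, 521 and 559. Without the 3 libraries numbered 3, a choice made after seeing the data, 5 members were lower at 20 months, 3 were higher at 28 than at 2 months and 0 were higher at 28 than at 20 months, against 416, 400 and 3 of all genes. At an unadjusted p under 0.05, 28 members were higher at 28 than at 20 months without those libraries (3.60% of all genes), and 34 were without 28-m library 2 (4.87%). With any 1 library left out, 36 to 39 members had a log2 fold change below 0 at 20 against 2 months. In all such fits 42 had one above 0 at 28 against 20 months. At 28 against 2 months 26 to 35 had one above 0 and 8 to 17 one below 0, with medians of 0.12 to 0.26. Within the libraries numbered 1 and 2 the medians over members were -0.48 at 20 against 2 months and 0.70 at 28 against 20 months. Within those numbered 3 they were -0.53 and 0.61. The GTPase median at 20 against 2 months was -0.24 in the libraries numbered 1 and 2 and -0.68 in those numbered 3.

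By role, 10 of 26 tested effectors, 2 of 4 transcription factors and 5 of 13 GTPases were lower at 20 months. Over all genes 7.13% were lower, and the role medians were -0.45, -0.56 and -0.52. At 28 against 20 months 1 effector, 1 transcription factor and 6 GTPases were higher, against 0.212% of all genes. The medians were 0.64, 0.68 and 1.07. At 28 against 2 months 1 effector, 0 transcription factors and 3 GTPases were higher, against 7.53% of all genes. The medians there were 0.09, 0.06 and 0.40. For the transcription factors, limma, edgeR and DESeq2 each gave 0 in that contrast and so did an unadjusted p under 0.05. The GTPase median thus lay above that of the other roles at 28 months, but the difference between roles was not tested.

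**Figure D2:**
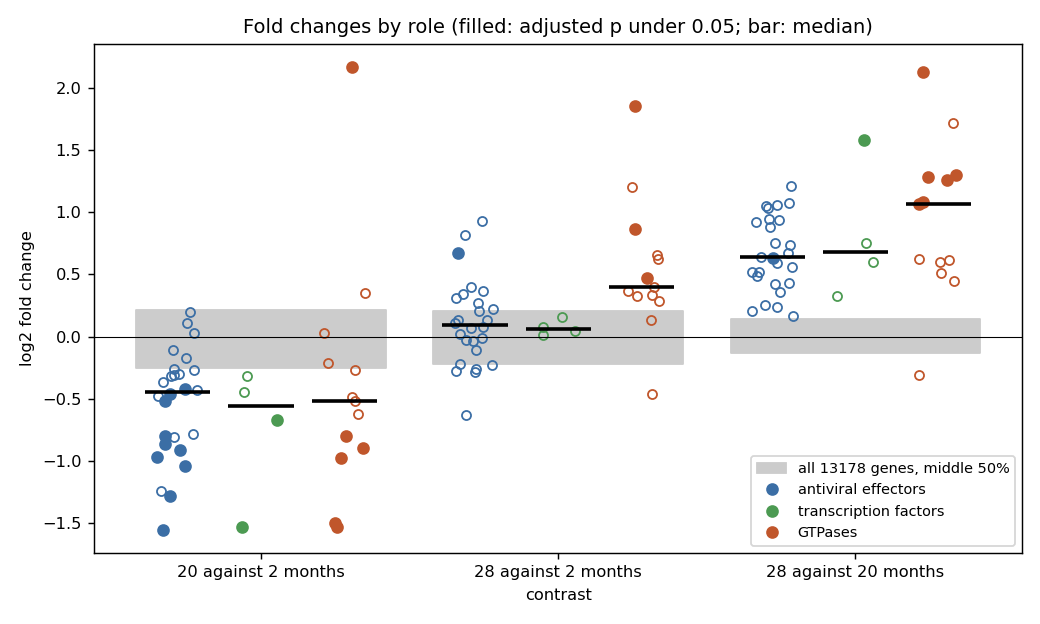
Log2 fold changes of the 43 tested members by role in the 3 contrasts, with filled points for an adjusted p under 0.05, black bars for role medians and a grey band for the middle 50% of all 13178 genes. The GTPase bar lies at 1.07 at 28 against 20 months and the effector bar at 0.64, and 1 GTPase, Gbp6, lies above 2 at 20 against 2 months.

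Irf7, the transcription factor that amplifies type I interferon production, fell most clearly among the 4 transcription factors. Its normalized counts were 143, 159 and 159 in the 2-m libraries, 54.2, 35.4 and 74.1 in the 20-m libraries and 213, 134 and 138 in the 28-m libraries. All 20-m libraries were below all others, and the 2-m and 28-m libraries overlapped. Irf7 was lower at 20 than at 2 months (log2 fold change -1.53 ± 0.27, here and afterwards with its SE, adjusted p = 0.00290) and higher at 28 than at 20 months (1.58 ± 0.27, 0.0273). Between 28 and 2 months the difference was 0.04 ± 0.27 (0.940). Irf7 stayed called as lower at 20 months under all 21 alternatives, and the rise at 28 months was called under 13 of 21.

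Stat2, a subunit of the complex that binds the ISRE, had normalized counts of 209.5, 269.6 and 241 at 2 months, 176, 115 and 166 at 20 months and 268, 228 and 264 at 28 months. The 20-m libraries were again the 3 lowest, and the fall was called (-0.67 ± 0.19, adjusted p = 0.0273), whereas the difference between 28 and 20 months was not (0.75 ± 0.19, 0.126). Irf9, its partner, had 247, 254 and 269 at 2 months, 219, 187 and 212 at 20 months and 228, 238 and 319 at 28 months. Irf1, a factor induced by interferon gamma, had 374, 428 and 281 at 2 months, 263, 233 and 289 at 20 months and 387, 468 and 343 at 28 months. Neither Irf9 nor Irf1 passed the test in any contrast, with log2 fold changes of -0.32 and -0.45 at 20 against 2 months.

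**Figure D3:**
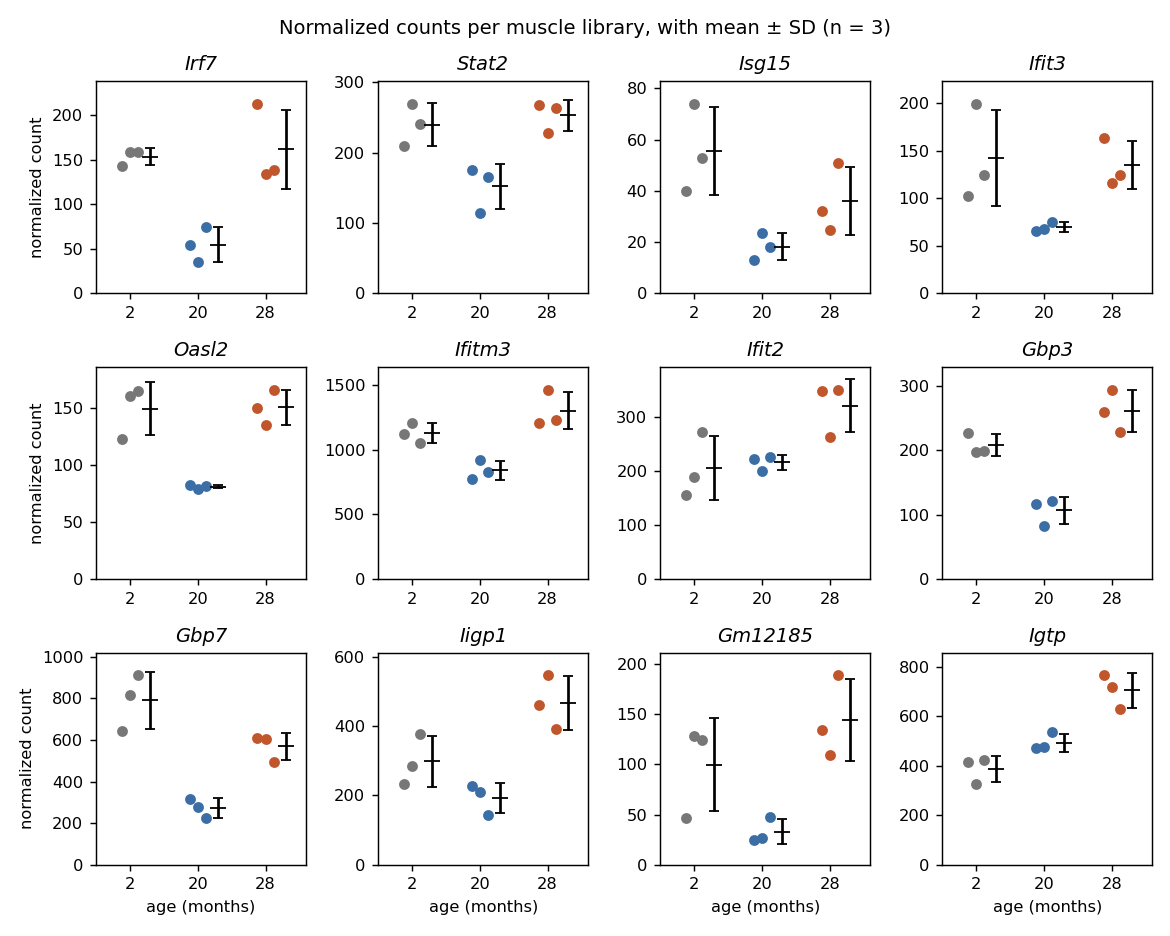
Normalized counts of 12 interferon-stimulated genes in each of the 9 muscle libraries by age, with the mean ± SD (n = 3) beside the points. The 20-m points of Irf7 lie from 35.4 to 74.1, below all 2-m and 28-m points. The group mean is highest at 28 months in all genes shown but Isg15, Ifit3 and Gbp7.

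Among the effectors, Isg15, a ubiquitin-like protein that is joined to other proteins, had the largest fall. Its normalized counts were 40.1, 74.01 and 52.7 at 2 months, 13.1, 23.6 and 17.98 at 20 months and 32.3, 24.9 and 50.96 at 28 months, from 249 reads in all. The 20-m libraries lay below all others, and the fall from 2 months was called (log2 fold change -1.55 ± 0.41, adjusted p = 0.0213), whereas the difference between 28 and 20 months was not (0.92 ± 0.41, 0.451). Usp18, the protease that removes ISG15 from proteins, was not called in any contrast, with normalized counts of 31.2, 66.96 and 73.6 at 2 months, 35.5, 52.3 and 47.9 at 20 months and 102, 85.6 and 98.1 at 28 months.

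The Ifit genes, whose proteins bind viral RNA, lie side by side on chromosome 19. Ifit3 (chr19:34583119-34588982, GRCm38) had normalized counts of 103, 199 and 124 at 2 months, 65.4, 67.5 and 75.2 at 20 months and 163, 116 and 125 at 28 months. It fell by 0.97 at 20 against 2 months on the log2 scale (SE 0.25, adjusted p = 0.0220), with the 20-m libraries below all others. Ifit1 (chr19:34640889-34650009) had a log2 fold change of similar size that did not pass (-0.81 ± 0.27, adjusted p = 0.0551). Ifit2 (chr19:34550550-34576534) had 156, 189 and 272 at 2 months, 222, 201 and 226 at 20 months and 349, 264 and 351 at 28 months, and its 20-m values lay within the 2-m range. It was the 1 effector that was higher at 28 than at 2 months (0.67 ± 0.20, adjusted p = 0.0432), although 2-m library 3 lay above 28-m library 2, and the call held under 9 of 21 alternatives. Ifit3b, a near copy of Ifit3 whose reads may be hard to tell from it, had a log2 fold change of 0.08 at 20 against 2 months and was not called.

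The oligoadenylate synthetase family makes the signal that activates RNase L in cells that sense viral RNA. Oasl2, an oligoadenylate synthetase-like gene, had 123, 160.4 and 165 at 2 months, 82.2, 79.3 and 81.2 at 20 months and 149.9, 135 and 166 at 28 months. The 20-m libraries were close together and below all others, and the fall was called (-0.86 ± 0.19, adjusted p = 0.00945). Its neighbour Oasl1, with 98 reads in all, had a log2 fold change of -1.24 ± 0.57 that did not pass (adjusted p = 0.153). Oas2 was not low at 20 months in all libraries, with 33.4, 40.5 and 59.2 at 2 months, 29.9, 32.1 and 66.5 at 20 months and 87.3, 87.01 and 75.5 at 28 months, and was not called. Oas1a had 108 reads and no call, and its near copies in the Oas1 cluster had fewer. Oas3 (44 reads in all 9 libraries), Mx1 (13) and Mx2 (55), which encodes with Mx1 the dynamin-like Mx antiviral GTPases, were below the filter on low values and were not tested.

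Ifitm3, which blocks viral entry at endosomes, had the highest level per length of all members, a mean over ages of 1684 normalized counts per kb of exon. Its normalized counts were 1121, 1209 and 1054 at 2 months, 773, 919.6 and 832 at 20 months and 1209, 1468 and 1232 at 28 months. The fall at 20 months (-0.42 ± 0.11, adjusted p = 0.0169) and the rise at 28 against 20 months (0.63 ± 0.11, 0.0227) were both called, the only such pair among the effectors. Its neighbour and near copy Ifitm2, which is not among the 46, had log2 fold changes of -0.22 and 0.14 in those contrasts and was not called.

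Bst2, which tethers budding virus to the cell, had 263, 326 and 269 at 2 months, 153, 187 and 152 at 20 months and 254, 314 and 162 at 28 months. The 20-m libraries were below all 2-m libraries, whereas 28-m library 3 lay within the 20-m range. The fall was called (-0.80 ± 0.22, adjusted p = 0.0260). Lgals3bp, a secreted glycoprotein, had 649, 587 and 774 at 2 months, 493, 498 and 458 at 20 months and 645, 592 and 617 at 28 months and a log2 fold change of -0.46 ± 0.12 at 20 months (adjusted p = 0.0174).

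Of the remaining effectors lower at 20 months, Cmpk2, a mitochondrial nucleotide kinase next to Rsad2, had 147, 197 and 165 at 2 months, 95.3, 59.1 and 125 at 20 months and 171, 214 and 174 at 28 months (-0.91 ± 0.25, adjusted p = 0.0273). Rsad2 itself, the antiviral enzyme viperin, was not called (-0.30). Parp14, an ADP-ribosyltransferase, had 488, 664 and 563 at 2 months, 422, 393 and 376 at 20 months and 613, 635 and 547 at 28 months (-0.52 ± 0.13, adjusted p = 0.0165). For both genes all 20-m libraries lay below all others. Rtp4, a chaperone of membrane receptors, had 132, 143 and 105 at 2 months, 67.3, 72.6 and 45.8 at 20 months and 125, 88.4 and 98.1 at 28 months (-1.04 ± 0.25, adjusted p = 0.0139). Ifi44 had 55.7, 56.4 and 43.3 at 2 months, 24.3, 15.2 and 23.4 at 20 months and 64.5, 27.6 and 47.2 at 28 months (-1.28 ± 0.38, adjusted p = 0.0379). The 20-m libraries of Rtp4 and Ifi44 were also the 3 lowest.

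The effector with the second highest level per length was Ifi27, at 507 normalized counts per kb, and it was not called in any contrast. Its normalized counts were 651, 631 and 589.8 at 2 months, 656, 655 and 598 at 20 months and 719, 783 and 751 at 28 months. The 28-m libraries were above all others, but the log2 fold change of 0.27 ± 0.10 at 28 against 2 months did not pass (adjusted p = 0.0853). Its relative Ifi27l2a, which is not among the 46, had 147, 104 and 143 at 2 months, 74.7, 50.6 and 59.4 at 20 months and 116, 122 and 159 at 28 months, and was lower at 20 months (-1.08 ± 0.24, adjusted p = 0.00875). The other uncalled effectors were Ifi35, Xaf1, Parp9, Trim30a, Herc6, Epsti1, Samd9l and Dtx3l. Their log2 fold changes at 20 against 2 months ran from -0.78 (Epsti1) to 0.20 (Dtx3l).

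Of the 13 GTPase genes 5 were lower at 20 than at 2 months and 1 was higher, against 7.13 and 9.42% of all genes. Gbp7 (chr3:142530336-142550151) lies in the Gbp cluster of chromosome 3 with Gbp5, Gbp3 and Gbp2. Its normalized counts were 642, 816 and 910.4 at 2 months, 316, 278 and 223 at 20 months and 607, 604 and 494 at 28 months. None of the 3 groups overlapped, and Gbp7 was the 1 member whose 28-m libraries were all below its 2-m libraries. Gbp7 was lower at 20 than at 2 months (-1.53 ± 0.16, adjusted p = 8.18e-05) and higher at 28 than at 20 months (1.07 ± 0.16, 0.0124). The difference between 28 and 2 months did not pass (-0.46 ± 0.16, 0.0755).

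Gbp3 had 227, 197 and 199 at 2 months, 116, 82.7 and 121 at 20 months and 260.0, 294 and 228 at 28 months. It was lower at 20 months (-0.97 ± 0.19, adjusted p = 0.00429) and higher at 28 than at 20 months (1.29 ± 0.19, 0.00937). Its 28-m libraries were above all 2-m libraries by a narrow margin, with 0.32 between these ages (adjusted p = 0.283). Gbp5 had 163, 222 and 180.5 at 2 months, 121, 119.8 and 84.4 at 20 months and 245, 238 and 204 at 28 months, was called in the same contrasts (-0.80 ± 0.20 and 1.08 ± 0.20, adjusted p = 0.0159 and 0.0344) and overlapped between 2 and 28 months. Gbp2, whose sequence is shown with theirs, was not called, with log2 fold changes of -0.21 and 0.61 in those contrasts.

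In the Gbp cluster of chromosome 5 neighbouring genes moved in opposite directions at 20 months. Gbp4 (chr5:105115767-105139586) had 172, 280.2 and 217 at 2 months, 131, 91.1 and 135 at 20 months and 235, 344 and 276 at 28 months, and it was lower at 20 months (-0.89 ± 0.22, adjusted p = 0.0174) and higher at 28 than at 20 months (1.26 ± 0.22, 0.0323). Gbp6 (chr5:105270702-105295871) had 93.6, 104 and 128 at 2 months, 568, 332 and 607 at 20 months and 406, 366 and 404 at 28 months. All of its 20-m and 28-m libraries were above all 2-m libraries. Gbp6 was higher at 20 than at 2 months (2.16 ± 0.21, adjusted p = 4.70e-05) and at 28 than at 2 months (1.85 ± 0.21, 0.000148), and both calls held under all 21 alternatives. Gbp10 (chr5:105215699-105239533), a near copy of Gbp6 between Gbp4 and Gbp6, was called in the same contrasts, with 33.4, 10.6 and 23.8 at 2 months, 247, 94.5 and 217 at 20 months and 180.3, 113 and 157 at 28 months. Its log2 fold changes against 2 months were 3.01 ± 0.42 and 2.79 ± 0.42 (adjusted p = 0.000607 and 0.00105). Reads that fit both genes were not assigned to either by the counting, so how the reads divide between these copies is uncertain. Gbp9, next to Gbp4, was not called (-0.49 at 20 against 2 months).

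**Figure D4:**
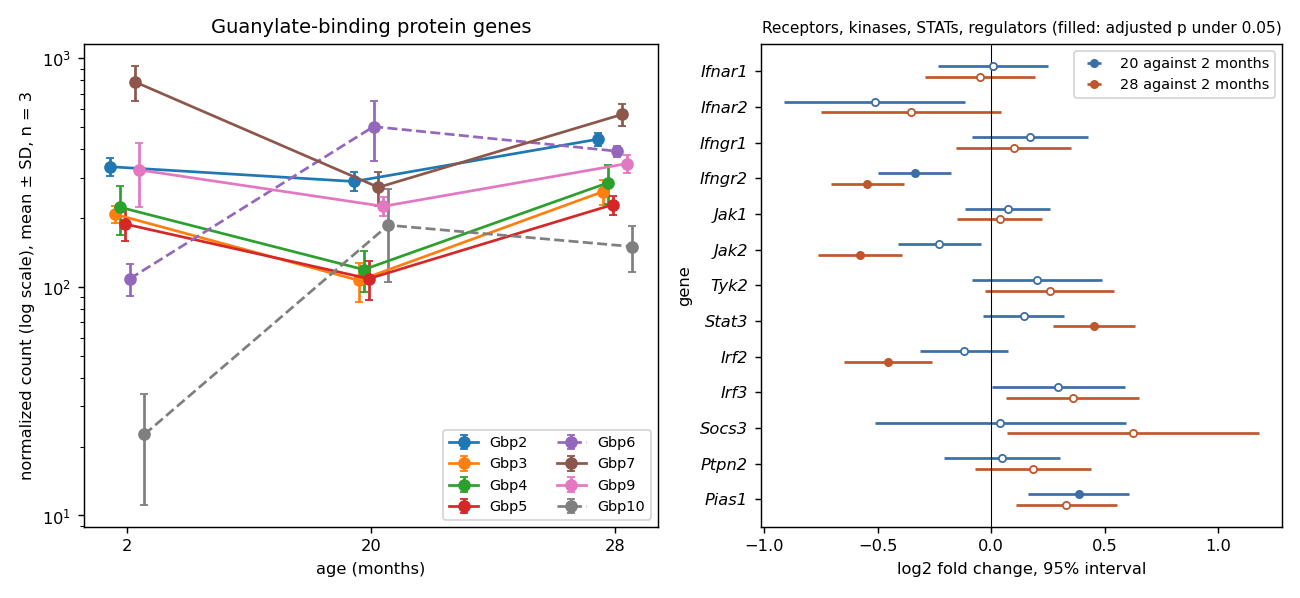
Left, mean normalized counts ± SD (n = 3 libraries, log axis) of 8 Gbp genes by age, in which Gbp6 and Gbp10 (dashed) rise from 2 to 20 months while Gbp3, Gbp4, Gbp5 and Gbp7 fall. Right, log2 fold changes with 95% intervals of 13 receptor, kinase, STAT and regulator genes at 20 and 28 against 2 months, filled for an adjusted p under 0.05, with Ifngr2 and Jak2 below 0 and Stat3 above 0 at 28 months.

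All 6 IRG-family members had their highest group mean at 28 months, as had 31 of the 43 tested members and 27.0% of all genes. Igtp, also known as Irgm3, had 415, 328 and 423 at 2 months, 471, 476 and 537 at 20 months and 767, 719.5 and 630.4 at 28 months, with no overlap between any of the groups. It was higher at 28 than at 2 months (0.86 ± 0.13, adjusted p = 0.000918), while the steps from 2 to 20 and from 20 to 28 months did not pass (0.0810 and 0.135). Irgm1, which regulates the other IRG proteins, had 510.4, 552 and 611 at 2 months, 629.5, 477 and 602 at 20 months and 799, 753 and 759 at 28 months, and its 28-m libraries were above all others (0.47 ± 0.12 at 28 against 2 months, adjusted p = 0.0232). These 2 genes had the highest level per length among the GTPases, at 274 (Irgm1) and 262 (Igtp) normalized counts per kb.

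Iigp1, an IRG effector that binds to pathogen vacuoles, had 234, 284 and 378 at 2 months, 226, 209 and 144 at 20 months and 461, 547 and 391 at 28 months. The groups did not overlap, and the rise at 28 against 20 months was called (1.28 ± 0.21, adjusted p = 0.0207). Gm12185 (chr11:48904656-48927182) had 46.8, 129 and 124 at 2 months, 24.3, 27.00 and 47.4 at 20 months and 135, 109 and 189 at 28 months. It was lower at 20 months (-1.50 ± 0.40, adjusted p = 0.0228) and higher at 28 than at 20 months (2.12 ± 0.40, 0.0435), although 2-m library 1 lay below 20-m library 3. Tgtp1 had a log2 fold change of 1.71 ± 0.44 at 28 against 20 months that did not pass (adjusted p = 0.143), with 35.7, 17.6 and 64.3 at 2 months, 18.7, 27.00 and 26.7 at 20 months and 60.7, 113 and 75.5 at 28 months. All of its 28-m libraries were above the 20-m libraries, and the 2-m libraries overlapped both groups. Irgm2 did not pass either (0.60 ± 0.12, 0.0666). Thus, of the 4 genes that share the GAS and ISRE window, Igtp was called at 28 against 2 months and Gm12185 in the other contrasts. Over the tested members with a promoter in the table, 5 of 18 with ISRE letters and 1 of 15 without were higher at 28 than at 20 months, with medians of 0.74 and 0.56. At 20 against 2 months 9 of 18 and 5 of 15 were lower, with medians of -0.59 and -0.46. Over all genes, 0.212% were higher in the former contrast and 7.13% lower in the latter. All 9 GTPase genes with a promoter in the table held the ISRE letters, so this split overlaps with role. The difference by ISRE letters was not tested.

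Of 21 interferon genes sought, 19 had a row in the table and none had a mean of 10. For 12 of them, Ifnb1 included, all 9 libraries held 0 reads. Ifng, the gene of interferon gamma, had 1 read, in 28-m library 2, and Ifna4 had 8 reads in all. The ligand genes were therefore not tested between ages.

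Of 5 tested receptor genes 1 was called, Ifngr2, and of 4 kinase and STAT genes 2 were called, Jak2 and Stat3, in lists too short to set against the 20.9% of all genes called in any contrast. Ifngr2, a chain of the interferon gamma receptor, decreased with age, with 4023, 3627 and 4025 at 2 months, 3054, 3035 and 3143 at 20 months and 2757, 2714 and 2519.6 at 28 months and no overlap. Against 2 months it changed by -0.34 ± 0.07 at 20 and by -0.55 ± 0.07 at 28 months on the log2 scale (adjusted p = 0.00951 and 0.000492). Jak2, a kinase of that receptor, had 2614, 2571 and 2688 at 2 months, 2341, 2241 and 2138 at 20 months and 1932, 1591 and 1767 at 28 months and was lower at 28 than at 2 months (-0.58 ± 0.08, adjusted p = 0.000788). Ifnar1, Ifnar2, Ifngr1, Jak1 and Tyk2 were not called, with log2 fold changes at 28 against 2 months from -0.35 (Ifnar2) to 0.26 (Tyk2).

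Stat3, a STAT protein of cytokine signalling, was higher at 28 than at 2 months (0.45 ± 0.08, adjusted p = 0.00365), with 2399 to 2849 at 2 months and 3361 to 3632 at 28 months.

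Of 5 other Irf genes, Irf2, which can repress interferon genes, was lower at 28 than at 2 months (-0.45 ± 0.09, adjusted p = 0.00553), with 848 to 874 at 2 months and 604 to 668 at 28 months. Irf3, Irf4, Irf5 and Irf8 were not called. Of 6 negative regulators, Socs1, an inhibitor of the Janus kinases that interferons induce, was lower at 20 months (-2.25 ± 0.66, adjusted p = 0.0350), with 15.6, 29.96 and 28.2 at 2 months, 3.74, 5.06 and 3.81 at 20 months and 9.49, 9.67 and 3.77 at 28 months. These values rest on 63 reads at 2 months and 12 reads at 20 months. Pias1, an inhibitor of STAT signalling, was higher at 20 months (0.38 ± 0.10, adjusted p = 0.0236), with 629.5 to 795 at 2 months and 889.7 to 968 at 20 months. Socs3, Ptpn2, Ptpn6 and Ptpn11 were not called. These lists of 5 and 6 genes are too short to set against the 20.9% of all genes called in any contrast. Of 11 tested near copies and other interferon GTPase genes, 1 was higher (Gbp10) and 1 lower (Ifi27l2a) at 20 against 2 months. Each is 9.09% of the list, near the 9.42% of all genes higher and 7.13% lower. At 28 against 2 months 3 of the 11 were higher, against 7.53% of all genes. Gm4841 and F830016B08Rik, both IRG-type genes, were higher at 28 than at 2 months with Gbp10 (1.61 ± 0.37 and 1.34 ± 0.28, adjusted p = 0.0129 and 0.00723).

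Markers of cell types that can hold interferon-stimulated transcripts were summed in each library. Of 10 macrophage genes, 3 (Lyz2, C1qa and C1qb) were lower at 20 than at 2 months (-0.54, -0.59 and -0.61 on the log2 scale). Of the 10, 9 had a log2 fold change below 0 there and 1, Cd163, above 0. Cd163 had 343, 412 and 427 at 2 months and 495, 434 and 470 at 20 months. Lyz2 had the highest count of the 10 in each library. The macrophage sum ran from 3701 to 5222 at 2 months, from 3346 to 3497 at 20 months and from 3471 to 4945 at 28 months, so it was lower in the 20-m than in the 2-m libraries and overlapped between 20 and 28 months, and its part in the values of the members was not tested. T and NK cell genes summed to 26.4 to 53.5 at 2 months, 30.4 to 33.6 at 20 months and 34.2 to 66.3 at 28 months, with 1 of 12 above the filter on low values. B and plasma cell genes summed to 28.9 to 279 at 2 months, 56.0 to 164 at 20 months and 135 to 187 at 28 months. Plasmacytoid dendritic cell genes, mostly Tcf4, summed to 3107 to 4206, 3080 to 3542 and 3118 to 3344 at these ages. The 7 endothelial genes summed to 10866 to 15084 at 2 months, 10596 to 12028 at 20 months and 11325 to 13445 at 28 months. Of 6 fibroblast genes 3 (Col1a1, Col3a1 and Dpt) were lower at 20 and at 28 months than at 2 months. Without 2-m library 1, which held the marrow granulocyte genes, 18 members were lower at 20 months, against 565 of all genes. In that fit 2 members were higher and 1 lower at 28 than at 2 months, against 612 and 495 of all genes. With all 9 libraries these counts over all genes were 939, 992 and 822.

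MBD-seq, in which a high count marks methylated DNA, gave low values at most promoters of the members. In 2-m muscle the 500-base bins over the promoters of 34 members had a median normalized count of 1.36, against 5.46 over 26662 genes. In 20-m muscle the medians were 1.47 and 5.47, and in 28-m muscle 4.78 and 9.56. In T cells they were 0.761 and 5.58 at 2 months, 1.22 and 6.69 at 20 months, and 1.32 and 7.27 at 28 months. The median of the members was thus below that of all genes in each library, with 25 to 31 of the 34 members below it, and in muscle both medians were highest at 28 months. Each age was 1 pool, 1 read was worth 0.637 to 1.32 normalized counts, and no test between ages was made.

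**Figure D5:**
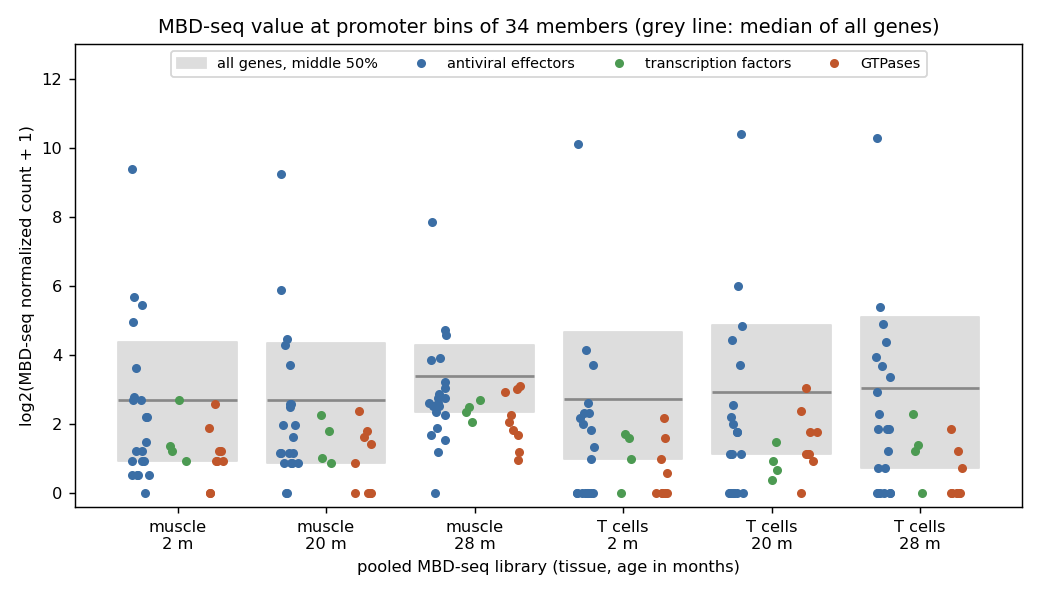
MBD-seq values (log2 of the normalized count plus 1) at the promoter bins of 34 members in the 6 pooled libraries, coloured by role, with a grey band and line for the middle 50% and the median of all genes. Most members lie below the grey line, and 1 effector, Oasl1, lies far above the band in all 6 libraries.

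Irf7, which fell and rose again in the RNA-seq, had MBD-seq values of 0.910, 0.842 and 4.14 at its promoter in 2-m, 20-m and 28-m muscle. Gbp7 had 0.910, 0 and 7.65, and Isg15 had 5.46, 4.63 and 8.29. In muscle these values rest on 1 to 6.5 reads per bin for Irf7, 0 to 12 for Gbp7 and 5.5 to 13 for Isg15, and a value at 0 allows up to 3 reads, for counting error only. Oasl1 differed from all other members, with 665, 602 and 232 in muscle and 1092, 1341 and 1252 in T cells at 2, 20 and 28 months. Oas3, Epsti1 and Oasl2 followed it in 2-m muscle with 50.03, 42.8 and 30.02.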

How the data were processed

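Both deposited tables hold signal values, namely reads that the authors had counted per gene or bin and scaled with DESeq2 size factors, and each value was checked to be a whole number of reads times 1 step per library (100% of nonzero values, tolerance 1e-06 reads). RNA-seq libraries were made from poly-A RNA without strand information, and reads were counted per RefSeq gene of mm10 with HTSeq (submitters' processing notes, which also name Trim Galore, Bowtie2, TopHat and bedtools; the paper names Hisat2 for the RNA reads). Reads that fit several places were not assigned, so near copies of a gene can lose reads. The 5 rows naming no gene, 37.9 to 47.7% of counts, were left out.

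The 46 genes, the pathway lists and the marker lists were chosen with earlier results of these data known. All 9 libraries were fitted with limma 3.58.1 (R 4.3.3, limma-trend), with a pseudocount of 1 before taking log2 and no term but age, for 13178 genes with a mean of at least 10, with Benjamini-Hochberg adjustment over all of them, and a gene was called at an adjusted p under 0.05. Fold changes are on this scale and understate those of low genes. With 3 mice per age, p-values measure the spread between these libraries. Alternatives were other pseudocounts, filters and scalings, count models on the recovered reads (edgeR 4.0.16 and, separately, DESeq2 1.42.0), the replicate number as a block, only the ages compared, the study's thresholds on the limma values, each library left out, and, chosen after seeing the data, the libraries numbered 3 left out. By rule, values are given in full for members called in any contrast, and in each role for those with the highest level per length of merged RefSeq exons and the largest fold changes. Usp18, Oas2, Tgtp1 and the members and copies beside a called gene fall outside this rule and were added after their values were seen. Pathway genes are named when called or when they encode the core ligands, receptors, kinases and inhibitors, the others enter only the counts of their lists, and 2 further genes were left out of the lists and are not reported here. Members were matched by symbol, with Ifi27 as Ifi27l1. MBD-seq values at promoters are means over the 500-base bins that the RefSeq promoter window touches, averaged over a gene's promoters, in 1 pooled library per age and tissue. The labels list 2 rounds of capture for muscle, and the 1 muscle column per age does not name its round, so the values are given per age without a round. Libraries of equal number were not paired, because only the libraries numbered 3 deviated together.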

Additional observations from a re-analysis of the deposited data

How the results depend on the processing

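Directions were kept under every alternative for all 30 calls of members, and a call was kept in 491 of 628 cases and lost in 137. Counts of members called moved by over 1.5 times as follows. Against the 17 lower at 20 months there were 5 without the libraries numbered 3 and 7 by the study's thresholds. Over all genes, the 939 that were lower became 416 and 382. With 1 library left out, 6 to 18 members were lower. Against the 4 higher at 28 than at 2 months there were 7 after rescaling to the same sum and 8 with the replicate block. DESeq2 gave 7 and the study's thresholds gave 2. Over all genes, the 992 that were higher became 1184, 1368, 1146 and 350 in the same order. With 1 library left out, 2 to 7 members were higher. Against 0 lower at 28 than at 2 months, DESeq2 gave 1, and 0 to 1 were lower with 1 library left out. Over all genes, the 822 that were lower became 979 in DESeq2. Against the 8 higher at 28 than at 20 months there were 5 with no filter on low values and 17 in DESeq2. Without the libraries numbered 3 there were 0. Over all genes, the 28 that were higher became 20 (of 19458 genes), 121 and 3 in the same order. With 1 library left out, 0 to 10 members were higher. The cause of these moves was not tested.

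With 1 library left out, effector medians at 20 against 2 months ran from -0.63 to -0.39 and GTPase medians from -0.67 to -0.40. The GTPase median at 28 against 20 months ran from 0.91 to 1.17. At 28 against 2 months the effector median ran from 0.037 to 0.21 and the GTPase median from 0.34 to 0.47. The transcription factor median in that contrast ran from -0.011 to 0.12 and so changed sign. With bins within 1000 bases of the start, the median MBD-seq value of the members was 7.10, 6.06 and 9.24 in muscle and 4.97, 4.75 and 5.02 in T cells at 2, 20 and 28 months, against 11.3, 11.3 and 12.6 and 12.8, 14.8 and 15.9 over all genes. The median log2 difference between 28 and 2 months was 0.066 in muscle and 0.18 in T cells (0.11 and 0.20 over all genes), whereas with the promoter bins it was 0.75 and 0 (0.46 and 0.073 over all genes).

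The replicate block, in which equal numbers were treated as pairs, gave 20 members lower at 20 months and 11 higher at 28 than at 20 months. Over all genes it gave 1304 and 64, against 939 and 28 without the block. Equal numbers are not stated to mark shared litters or days. Of the 9 pairs with equal numbers, the 3 among the libraries numbered 3 had a correlation of deviations over 0.1 (0.109, 0.150 and 0.161).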
